A study of Rattus norvegicus with 6 samples.

Results

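To describe what chronic stress was accompanied by at the borders of CpG islands in brain endothelium, the 167 CG regions that lie in an island shore and not in an island were taken from the 5849 annotated CG regions that differ between stressed and control rats. A member was any region with a shore row and no island row in the deposited annotation, and neither its level nor its direction entered the choice. Of the 167 members, 129 were hypermethylated (higher in the stressed group) and 38 were hypomethylated (lower), against a background of 80.0% hypermethylated among all annotated CG regions. Of the members, 31 had no gene row, and the genes of the others included the imprinted genes Gnas, Mest, Nnat and Peg3, the endothelial receptors Flt4 and Tie1 and the dopamine receptor gene Drd1.

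The data came from brain microvascular endothelial cells (BMECs), sorted as CD45-/CD31+ cells from the hippocampus of adult male Sprague-Dawley rats. The CUMS group (3 libraries) came from rats kept for 8 weeks under chronic unpredictable mild stress, in which mild stressors are changed without pattern to model depression, and the Ctrl group (3 libraries) was left undisturbed apart from cage cleaning. Methylation was read by enzymatic methyl sequencing, in which enzymes rather than bisulfite convert unmethylated cytosines, and both groups were compared by the authors with DSS, a region caller for methylation counts. The tables give 1 methylation level per region and group, with no read counts and no values of single libraries, so the spread between replicates and the read depth behind a single level are not known here, and every level below is a description without a test. CD31 is also found on endothelium of larger vessels, and levels in regions chosen for differing do not tell how pure the sorted cells were. Every region was listed because its groups differed, so the size of a member's difference is part of how it came to be listed.

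A CpG island is a stretch rich in CG dinucleotides, often at a gene's start, and is usually kept free of methylation. Its shores are the flanks on both sides, here 2000 bp wide, where CG pairs are sparser and where methylation passes from the low level of the island to the high level of the surrounding genome. Shores are known for methylation that varies between tissues and cell types more than it does in the islands themselves. The remaining genome, away from islands, shores and shelves (the next flank outwards), is called open sea.

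To show start sites of genes with a promoter member, promoters were read from RefSeq (GRCr8). They were taken for the promoter members of highest area statistic (a score of the region caller) in each direction that could be matched by symbol. That of Mest was added after its values were seen. Each window ran from 250 bases before to 50 bases after the transcription start. Each is printed 5′ to 3′ on the strand of its gene, in lower case with every CG pair in capitals. Tada2b (a component of histone acetyltransferase complexes; chr14:78503905-78504204, plus strand), Zfp467 (a zinc finger protein; chr4:78723086-78723385, minus strand) and Mest (chr4:60321564-60321863, plus strand) had members higher in CUMS. Drd1 (chr17:10546354-10546653, plus strand) and Pnpla7 (a lysophospholipase; chr3:28180501-28180800, plus strand) had members lower in CUMS. The members' own coordinates are on mRatBN7.2, so where they lie relative to these windows was not determined.
Tada2b: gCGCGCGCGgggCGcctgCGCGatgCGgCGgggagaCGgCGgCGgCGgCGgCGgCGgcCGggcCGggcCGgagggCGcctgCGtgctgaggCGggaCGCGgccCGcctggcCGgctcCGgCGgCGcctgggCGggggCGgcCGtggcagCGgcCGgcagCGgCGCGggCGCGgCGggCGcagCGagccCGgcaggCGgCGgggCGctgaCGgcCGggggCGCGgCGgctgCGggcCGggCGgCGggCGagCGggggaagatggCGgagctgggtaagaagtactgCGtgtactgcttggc
Zfp467: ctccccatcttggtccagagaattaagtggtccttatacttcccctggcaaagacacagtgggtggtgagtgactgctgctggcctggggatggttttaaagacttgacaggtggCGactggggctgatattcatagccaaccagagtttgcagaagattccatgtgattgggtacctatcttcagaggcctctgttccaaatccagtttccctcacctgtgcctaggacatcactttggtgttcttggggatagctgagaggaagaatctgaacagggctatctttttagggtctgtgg
Mest: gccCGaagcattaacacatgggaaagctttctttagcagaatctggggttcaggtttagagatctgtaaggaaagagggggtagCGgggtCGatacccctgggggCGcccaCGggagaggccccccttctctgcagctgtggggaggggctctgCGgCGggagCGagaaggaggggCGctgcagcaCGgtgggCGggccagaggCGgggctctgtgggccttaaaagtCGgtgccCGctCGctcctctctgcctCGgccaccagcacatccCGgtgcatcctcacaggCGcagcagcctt
Drd1: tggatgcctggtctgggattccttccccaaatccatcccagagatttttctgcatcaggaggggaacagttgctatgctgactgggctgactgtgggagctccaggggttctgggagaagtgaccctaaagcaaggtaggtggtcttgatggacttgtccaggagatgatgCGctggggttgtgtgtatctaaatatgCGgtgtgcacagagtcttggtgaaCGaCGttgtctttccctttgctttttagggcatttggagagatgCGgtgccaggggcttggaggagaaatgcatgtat
Pnpla7: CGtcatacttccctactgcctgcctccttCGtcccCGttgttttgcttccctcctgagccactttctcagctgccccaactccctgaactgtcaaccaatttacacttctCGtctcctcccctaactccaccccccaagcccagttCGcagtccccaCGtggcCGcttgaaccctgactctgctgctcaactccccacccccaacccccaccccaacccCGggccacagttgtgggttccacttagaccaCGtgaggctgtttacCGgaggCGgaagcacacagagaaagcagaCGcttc
The CG pairs in these windows numbered 59 in Tada2b, 18 in Mest, 12 in Pnpla7, 5 in Drd1 and 1 in Zfp467. The printed starts of genes with a promoter member were thus both CG-rich and CG-poor. The windows need not hold the members, and the Zfp467 member itself held 29 cytosines in 204 bp. Cytosine counts of regions are not counts of CG pairs. They reach 67.8 per 100 bp in open sea CG regions, more than 1 cytosine per pair allows, so both strands are counted. Over the 39 RefSeq promoters of the 37 matched genes (of 52 with a promoter member), the median was 18 CG pairs per 300 bases, against 7 over all 33469 promoters. The ratio of observed to expected CG pairs had a median of 0.69 in the first set and 0.39 in the second. Every member lies in an island shore by the rule that chose it, so its promoter is close to an island. Richer CG content than in all promoters is thus built into the choice and is no result about these genes. The letters TGCCGC, a motif searched on both strands, were present in 4 of the 39 promoters (10.3%) and in 11.7% of all promoters.

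The members were short and held few cytosines. Hypermethylated members had a median length of 90 bp and 13 cytosines, and hypomethylated members a median length of 80 bp and 9 cytosines. The density was 13.1 cytosines per 100 bp in the median shore region, between 25.9 in island regions and 10.98 in open sea regions. The longest named member, at chrX:152268737-152269283 in the promoter of ENSRNOG00000060839, held 94 cytosines and overlapped an ERVK element, a family of endogenous retroviruses. It was at 37.5% in CUMS against 19.7% in Ctrl.

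Shore members started from a wide range of levels in Ctrl. The 129 hypermethylated members had a median of 18.9% in Ctrl (quartiles 6.59% and 43.4%) and 39.9% in CUMS, with a median difference of 19.1 percentage points and a range from 5.79 to 45.9 points. The 38 hypomethylated members had a median of 66.5% in Ctrl (quartiles 35.3% and 84.2%) and 38.9% in CUMS, with a median difference of -18.6 points and a range from -39.1 to -8.58 points. The levels in CUMS of both sets thus had nearly the same median, although their levels in Ctrl lay far apart. A difference of at least 10 points was found in 153 members (91.6%), against 76.1% of all annotated CG regions. By class, the share was 60.7% in island, 92.8% in shelf and 93.6% in open sea regions, so only islands lay well below shores. Differences of at least 20 points were found in 55 hypermethylated and 16 hypomethylated members.

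**Figure D1:**
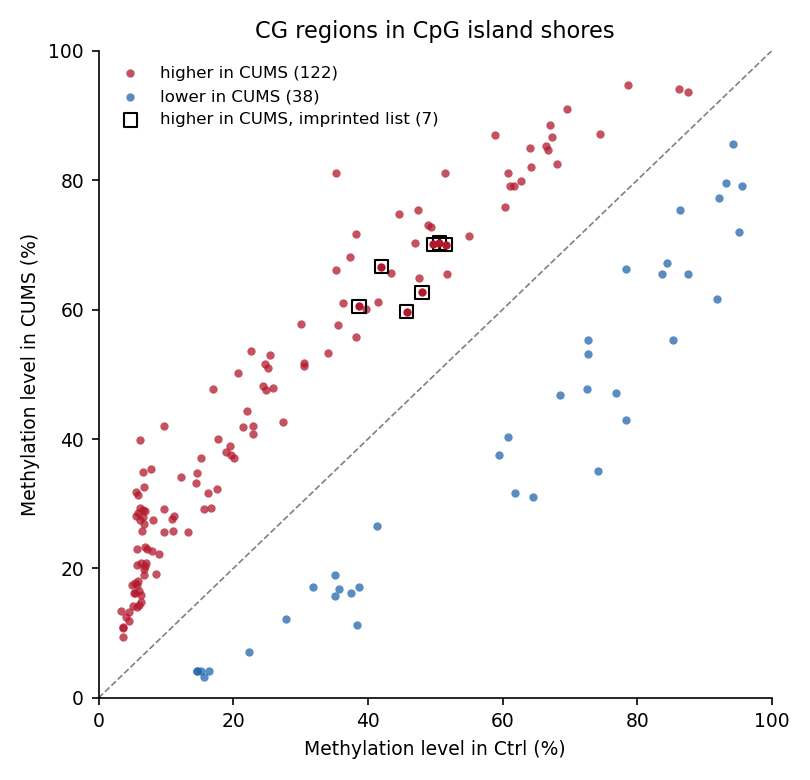
Methylation level (%) in Ctrl on the x axis and in CUMS on the y axis for the 167 shore CG regions, 1 point per region, with the line of equal levels dashed. The 129 points above the line span the scale from 3.37% to 87.6% in Ctrl, and the 7 squares mark members in listed imprinted genes, which sit between 38.7% and 51.6% in Ctrl.

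The direction went with the level in Ctrl. All 50 members below 10% in Ctrl were hypermethylated, a band in which a level cannot be lower by 10 points. Between 10% and 20%, 17 members were hypermethylated and 5 hypomethylated. Between 40% and 60%, 18 of 20 were hypermethylated. At 80% or more, 2 were hypermethylated and 11 hypomethylated. The lowest 5 hypomethylated members by Ctrl level lay in or beside Pnpla7 with Mrpl41, Nxph4, AABR07045431.1, Mapkbp1 and Tie1, and went from between 14.5% and 16.4% in Ctrl to between 3.26% and 4.22% in CUMS.

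Shore members lay between island and open sea regions in both level and direction, and were close to shelf regions in direction. The hypermethylated share was 77.2% (129 of 167) in shores, with an exact binomial 95% interval from 70.1% to 83.4% that covers counting error over regions only, 97.0% (2991 of 3083) in islands, 76.8% (53 of 69) in shelves and 59.7% (1505 of 2523) in open sea. A level below 20% in Ctrl was found in 43.1% of shore members, 91.4% of island regions and 9.08% of open sea regions. Among hypermethylated regions, the median difference was 19.1 points in shores, 11.4 points in islands, 20.3 points in shelves and 20.1 points in open sea. Their median level in Ctrl was 18.9% in shores and 43.7% in shelves.

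Within bands of similar Ctrl level the classes were close. Between 20% and 80% in Ctrl, 60 of 82 shore members (73.2%), 172 of 235 island regions (73.2%) and 1208 of 1627 open sea regions (74.2%) were hypermethylated. Above 80%, the shares were 15.4% of 13 shore members, 12.9% of 31 island regions and 13.6% of 667 open sea regions. Below 20%, 93.1% of 72 shore members were hypermethylated, against 99.9% of 2817 island and 90.0% of 229 open sea regions. The size of the difference below 20% still varied by class, with a median of 15.3 points for hypermethylated shore members, 11.1 points for island regions and 19.7 points for open sea regions. These shares come from regions selected on the same contrast, and the classes share their libraries.

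**Figure D2:**
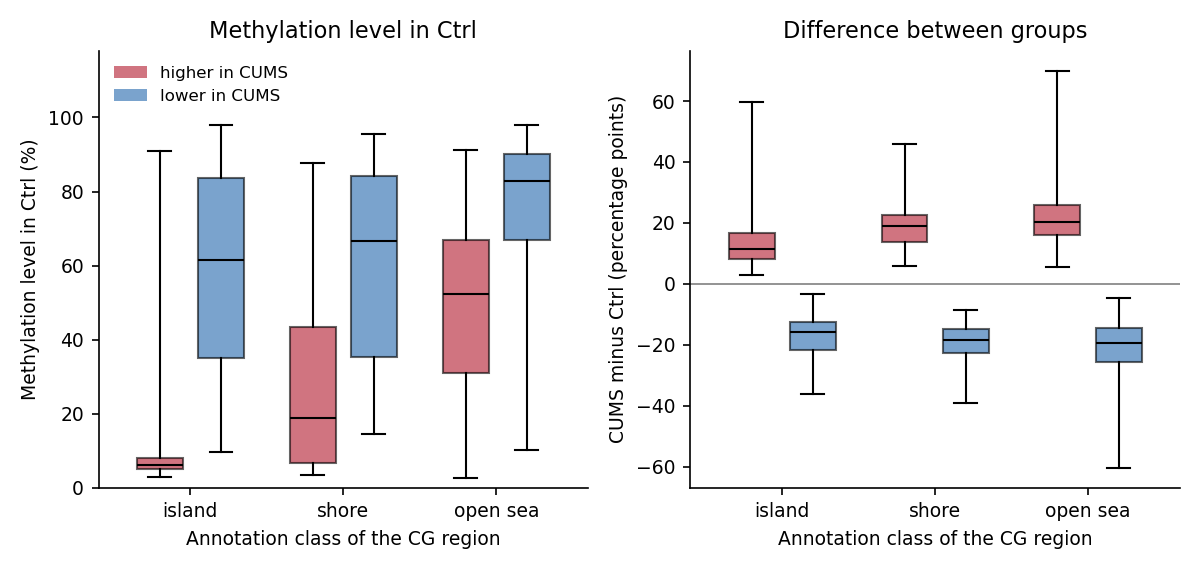
Level in Ctrl (%, left) and difference CUMS minus Ctrl (percentage points, right) of annotated CG regions in islands, shores and open sea, with red boxes for regions higher and blue boxes for regions lower in CUMS. Boxes show quartiles, the line the median and whiskers the full range; the median Ctrl level of the red boxes is 6.28% in islands, 18.9% in shores and 52.4% in open sea.

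Shore members were mostly genic (81.4%), as were 68.9% of all annotated CG regions. The genic share was 90.8% in island, 66.7% in shelf and 41.5% in open sea regions. Promoters held 52 members, of which 43 were hypermethylated and 9 hypomethylated. Their share of 31.1% stood beside 44.0% of island, 3.29% of open sea and 25.6% of all annotated CG regions. Exons held 41 members (35 and 6) and introns 73 (53 and 20), where a region may count under several features, and 31 members (23 and 8) had no gene row. A repeat overlapped 30 members (18.0%, against 1.26% of island and 61.1% of open sea regions), with 20 hypermethylated and 10 hypomethylated. ERVK elements were the commonest with 13 members (10 and 3).

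The 12 members annotated to a 5′ UTR were all hypermethylated, as were 98.9% of the 1269 CG regions with a 5′ UTR row in any class, so the count is near its background. Of these members, 10 were between 3.60% and 9.70% in Ctrl, a band in which every shore member was hypermethylated, and between 10.8% and 29.3% in CUMS. Examples, picked out after their values were seen, were Pgf, the placental growth factor gene of the VEGF family, at 29.1% in CUMS and 9.70% in Ctrl. Taok2, a stress-activated protein kinase gene, was at 25.8% and 6.41%. Nova2, an RNA-binding splicing factor that acts in neurons and endothelium, was at 27.5% and 8.12%. The other two members were in P2rx7, an ATP-gated ion channel, at 81.1% against 60.7% in Ctrl, and in the Peg3 and Usp29 region described next. Both members in a 3′ UTR, in Igsf11 and Nxph4, were hypomethylated, at 55.3% and 4.13% in CUMS and 72.8% and 14.6% in Ctrl.

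Imprinted genes are expressed from a single parental copy, and at their control regions methylation marks the copy of a single parent. Read over both parental copies, such regions therefore tend to be at intermediate levels. Of 28 genes in the list of imprinted genes, 15 had a CG region and 5 had a shore member, and the 7 members in these genes were hypermethylated. That direction is near its background, since 96.8% of the 31 CG regions in listed imprinted genes and 18 of the 20 shore members between 40% and 60% in Ctrl were hypermethylated. They spanned 38.7% to 51.6% in Ctrl (median 48.0%) and 59.7% to 70.3% in CUMS (median 66.6%), so the lowest CUMS level lay above the highest Ctrl level. Their median difference was 19.7 points, against 19.1 points over all hypermethylated shore members.

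Gnas, which encodes the stimulatory G protein alpha subunit and several imprinted transcripts, held 4 of the 7. The member at chr3:163082653-163082737 was at 59.7% in CUMS and 45.8% in Ctrl. The member at chr3:163083812-163083986 was at 60.5% and 38.7%, and its neighbour 55 bp on, at chr3:163084042-163084184, was at 70.1% and 49.7%. The last, at chr3:163088136-163088236, was at 62.7% and 48.0%. The 4 members covered 5584 bp from end to end, and all lay in an intron, the middle pair also in a promoter.

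The other imprinted members lay in separate loci. Mest, a paternally expressed gene of the hydrolase fold, had a promoter member at chr4:59353770-59353896 with 66.6% in CUMS and 42.0% in Ctrl. Its island region 656 bp away was at 73.9% and 54.3%. Peg3, a paternally expressed zinc finger gene, and Usp29, a deubiquitinase gene, shared a member at chr1:67097233-67097287 with 70.0% in CUMS and 51.6% in Ctrl, and the island region 424 bp away was at 67.0% and 35.6%. Nnat, the imprinted neuronatin gene in an intron of Blcap, had a member at chr3:146227402-146227454 with 70.3% and 50.6%. All 10 island CG regions in the listed genes that had a shore member were hypermethylated too, with differences from 11.8 to 31.3 points, and 8 of them began between 35.6% and 54.3% in Ctrl. A member in Nap1l5, an imprinted gene within Herc3 that was not on the list and was picked out after its values were seen, was at 61.2% in CUMS and 41.6% in Ctrl. Of the 20 members between 40% and 60% in Ctrl, 6 were in listed imprinted genes, as were 7 of all 167 members. Several of the 6 were Gnas members, which lie within 5584 bp of each other. Shore members were 7 of the 31 CG regions in listed imprinted genes (22.6%), against 2.86% of all annotated CG regions, a difference that was not tested.

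**Figure D3:**
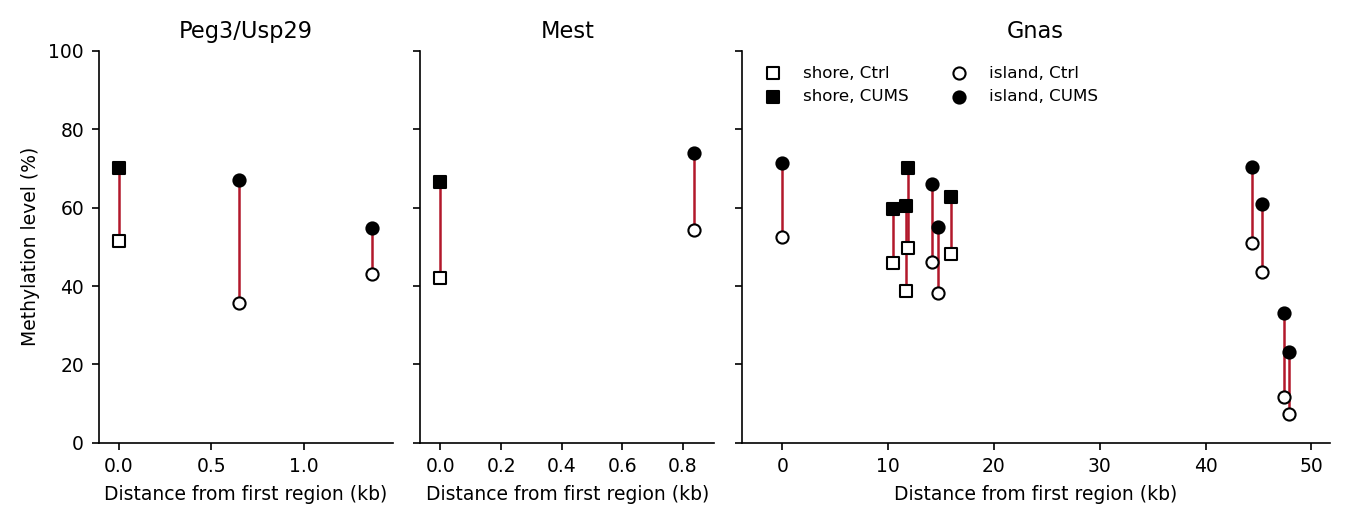
Methylation level (%) of CG regions in Peg3 and Usp29, in Mest and in Gnas against distance from the first region of each gene (kb), with squares for shore and circles for island regions, open for Ctrl and filled for CUMS. Each of the 6 shore regions shown is higher in CUMS, and 2 island regions of Gnas begin below 12% in Ctrl.

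Of 55 listed endothelial and blood-brain barrier genes, 14 had a CG region and 3 a shore member. The 3 members were 14.3% of the 21 CG regions in these genes, where shore members were 2.86% of all annotated CG regions, a difference that was not tested. Flt4, a VEGF receptor of lymphatic and growing endothelium, had an exonic member at chr10:33938388-33938460 with 70.2% in CUMS and 47.1% in Ctrl. Cgnl1, which encodes the junction protein paracingulin, had an intronic member of 5 cytosines with 34.7% and 14.7%. Tie1, an orphan receptor of the angiopoietin pathway, had an intronic member with the opposite direction, at 4.22% in CUMS and 16.4% in Ctrl. The marker lists of other cells that a sort could hold gave no member (0 of 15 mural, 0 of 10 astrocyte, 0 of 14 microglial, 0 of 23 neuronal and 0 of 11 oligodendrocyte genes), but these lists hold 15 CG regions in all, so that a share of 2.86% would leave less than 1 member. The lists of Wnt signalling (22 CG regions), junctions and adhesion (49), axon guidance (36) and one-carbon metabolism (2) gave no member either. Cgnl1 was counted on the endothelial list only, so the junction list does not cover every junction gene with a member.

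Vascular genes outside the lists were also present, and were picked out after their values were seen. Spns2, the exporter of sphingosine-1-phosphate from endothelial cells, was at 32.6% in CUMS and 6.75% in Ctrl in an intron. Adam15, a membrane metalloprotease, was at 28.1% and 5.50%. Pdcd10, a gene mutated in familial cerebral cavernous malformation, shared a promoter member with Serpini1 at 16.1% and 5.29%. Each was thus nearly unmethylated in Ctrl, below 10%, where all 50 shore members were hypermethylated, so their direction is that of the band. Etv6, an ETS-family repressor, was hypomethylated in an intron at chr4:166894654-166894762, from 85.3% in Ctrl to 55.4% in CUMS.

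Shore members in transcription factor genes were mostly hypermethylated, as were the CG regions of these lists in all classes (66 of 68 for homeobox and paired box genes, 65 of 68 for forkhead and related genes and 72 of 81 for zinc finger genes). Homeobox and paired box genes had 2 members in 182 listed genes. Six3, a regulator of forebrain and eye development, was at 31.3% in CUMS and 5.81% in Ctrl, and Zfhx3, a large zinc finger homeobox factor, was at 79.1% and 61.8%. The list of forkhead, Sox, T-box, Klf and related genes (160 genes) had 4 members. Tbx2, a T-box repressor, had a member of 411 bp with 62 cytosines at 38.0% and 18.9%. Hes6, an inhibitor of Hes1, was at 25.8% and 11.1%, and Foxi2 at 57.7% and 30.1%. Klf16 was the exception, at 75.5% in CUMS and 86.4% in Ctrl. Zinc finger genes had 4 members in 551 listed genes, all hypermethylated, with Zfp467 the largest at 31.8% in CUMS and 5.57% in Ctrl. Zfp36, which encodes an mRNA decay factor, was at 20.5% and 5.75% and shared its member with Paf1. Zbtb7a, also on the chromatin list, was at 23.0% and 5.67%, and Zfp532 at 44.3% and 22.1%.

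The stress axis, channel and TGF-beta lists had 1 shore member each, among 9, 64 and 37 CG regions, and the solute carrier list had 2 among 70. Those shares were 11.1%, 1.56%, 2.70% and 2.86%, beside 2.86% over all annotated CG regions. In the same order, 8, 59, 36 and 63 of these CG regions were hypermethylated. Drd1, which encodes the D1 dopamine receptor, was the only one of 28 listed stress axis genes with a shore member, at chr17:10540008-10540061 in its promoter and in an ERVK element. It was methylated at 53.2% in CUMS against 72.7% in Ctrl. The inward rectifier potassium channel genes Kcnj1 and Kcnj5 shared a member, with 61.6% in CUMS and 91.8% in Ctrl over 6 cytosines. It was the only one among 188 listed potassium and calcium channel genes, and no Cacna1 gene had one. Slc25a4, the mitochondrial ADP/ATP carrier, was at 85.4% and 66.5%, and Slc4a8, a bicarbonate transporter, at 48.2% and 24.4%. Ltbp4, which binds latent TGF-beta, was at 14.1% and 5.71%.

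The largest differences among hypermethylated members were found in genes of varied function. C1galt1c1, the chaperone of the core O-glycan galactosyltransferase, went from 35.2% in Ctrl to 81.1% in CUMS at chrX:117381787-117381861, a difference of 45.9 points over only 6 cytosines. Cyp27b1, the enzyme that activates vitamin D, went from 38.2% to 71.7%, a difference of 33.4 points over 7 cytosines. A member without a gene at chrX:103963859-103963949 went from 6.12% to 39.9%, and a member in ENSRNOG00000070222 from 9.65% to 42.0%. Zhx3, a zinc finger and homeobox repressor, went from 35.2% to 66.2% in an intron. The promoter and exon member of Tada2b and Ccdc96 at chr14:74277830-74278100 went from 20.7% to 50.2%. The Tada2b start printed above held 59 CG pairs. Tdg, the thymine DNA glycosylase that removes oxidised methylcytosine and was picked out after its values were seen, went from 44.6% to 74.8% over 34 cytosines.

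Other hypermethylated members with strong signal over many cytosines began higher or lower in Ctrl. Plscr3, a mitochondrial phospholipid scramblase, was at 73.1% in CUMS and 48.9% in Ctrl. Inpp5d, an inositol phosphatase of blood cells and microglia, was at 82.1% and 64.2%, and Alg13, of the N-glycan pathway, at 86.6% and 67.4%. Tmprss9, a serine protease, was at 57.7% and 35.5%. Mef2b, a MADS-box transcription factor gene, was at 12.5% and 4.05%, so that a small difference of 8.46 points rested on 32 cytosines.

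Hypomethylated members were led by a region without a gene at chrX:31591078-31591171, at 35.1% in CUMS and 74.2% in Ctrl. Ube3d, a ubiquitin ligase gene, followed with an intronic member of 412 bp at chr8:87412133-87412544, at 42.9% and 78.4%. A region without a gene at chr7:126891575-126891645 was at 31.0% and 64.6% over only 5 cytosines, and the intronic member in ENSRNOG00000037911 at 31.7% and 61.9% over 7. These went from methylated in Ctrl to an intermediate level in CUMS. Btd, the biotinidase gene, was at 67.2% and 84.4%, and Dhrsx, a dehydrogenase gene, at 77.2% and 92.2%. The promoter member of ENSRNOG00000067382 was at 47.1% and 76.8%. At the other end, Rnase4, a secreted ribonuclease gene, was at 18.96% and 35.1%, and the promoter member of Pnpla7, also in an exon of Mrpl41, at 4.22% and 14.5%.

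**Figure D4:**
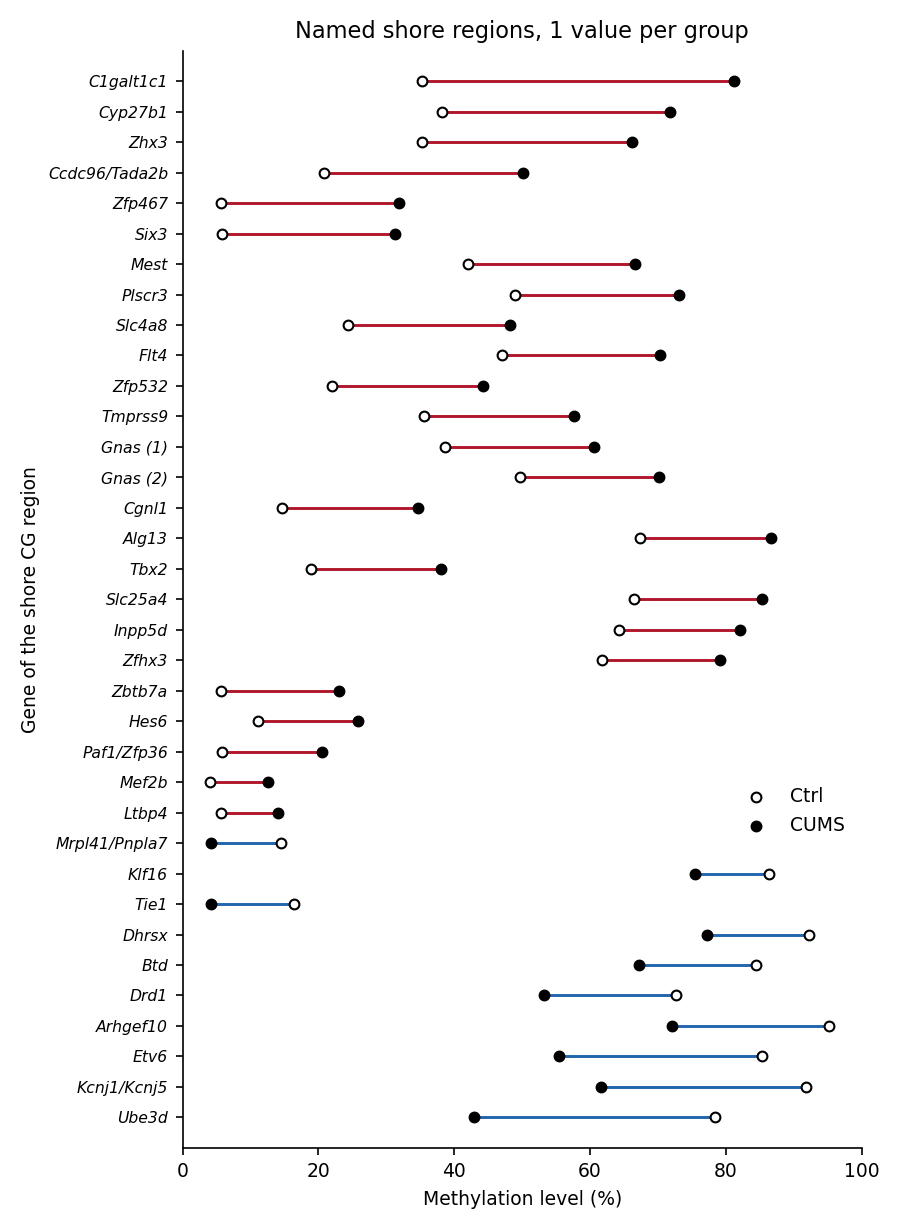
Methylation level (%) in Ctrl (open) and CUMS (filled) of the shore regions named by the selection rule that carry a gene symbol, ordered by difference, with red lines for higher and blue lines for lower in CUMS. C1galt1c1 stands at the top with 45.9 points and Ube3d at the bottom with -35.5 points; Gnas appears with 2 of its 4 members.

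To ask whether a shore moved with its island, the nearest island CG region within 2000 bp was found for each member. There was one for 36 members (21.6%), of which 35 were hypermethylated and 1 hypomethylated, and in all 36 pairs the island region had the same direction. Since 97.0% of island regions are hypermethylated, this count is close to what the island background gives. The single hypomethylated pair was in Igsf11, with -17.5 points in the shore and -14.8 points in the island. Of the 131 members without such a neighbour, 94 were hypermethylated and 37 hypomethylated.

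The shore often differed more than its island, and the pairs given here were picked out after their values were seen. Its difference was the larger in 25 of the 36 pairs and the smaller in 11, with a median size of 18.8 points in the shores and 13.9 points in the islands. Over all hypermethylated regions, paired or not, the median was 19.1 points in shores and 11.4 points in islands. A larger difference in the shore is thus not particular to the pairs. In 7 pairs the island was below 20% in Ctrl and the shore above 30%. Ppa2, a mitochondrial pyrophosphatase gene, was such a case, with a shore promoter member of 5 cytosines 274 bp away from the island region. The shore member was at 88.5% in CUMS and 67.0% in Ctrl, where the island was at 11.2% and 5.00%. Wdr4, a cofactor of tRNA methylation, had 79.1% and 61.1% in the shore and 16.1% and 4.85% in the island. In Mgat1, which starts complex N-glycan synthesis, both were low in Ctrl, with 28.9% against 6.92% in the shore and 31.8% and 6.70% in the island. Zfhx3, the closest pair at 78 bp, was intermediate in both, and its island region was at 70.5% and 49.2%.

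**Figure D5:**
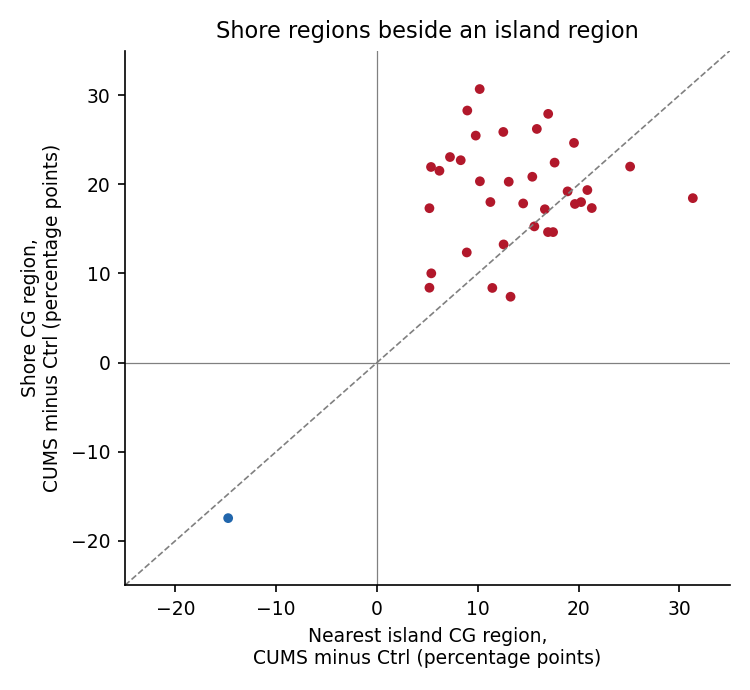
Difference CUMS minus Ctrl (percentage points) of the nearest island CG region on the x axis and of the shore member on the y axis for the 36 members with an island region within 2000 bp, with the line of equal differences dashed. The 35 red points are higher in CUMS in both and the blue point, Igsf11, is lower in both; 25 points lie farther from 0 in the shore.

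The distance to the island edge could be read for 43 members, those whose abutting island or shelf is itself in the table. It ran from 51 to 1988 bp with a median of 475 bp. Within 500 bp of the edge, 22 members were hypermethylated and 1 hypomethylated, and beyond 1000 bp 10 and 2. These 43 members were 40 hypermethylated and 3 hypomethylated, since an island enters the table mostly by carrying a region of its own, and they are not a sample of all members.

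Members close to each other did not always share a direction. In Cant1, a Golgi nucleotidase gene that overlaps Cep295nl, the member at chr10:103541320-103541375 was at 28.2% in CUMS and 11.2% in Ctrl. The member 416 bp on, at chr10:103541792-103541863, was at 16.8% and 35.7%. In Arhgef10, 3 members lay farther apart, with 3217 bp between the first and the next and 54448 bp before the last, and also differed in direction. An intronic member was at 53.4% in CUMS and 34.1% in Ctrl, the next at 72.0% and 95.1%, and a promoter member at 87.0% and 58.9%. A pair in ENSRNOG00000070008 on the X chromosome, 240 bp apart, was at 53.6% and 22.6% and at 55.8% and 38.3%, both hypermethylated.

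Methylation outside CG pairs was also listed at some members. CHG or CHH regions (H stands for any base but G) overlapped 11 members (6.59%), against 6.23% of island and 2.62% of open sea regions. Of the 12 overlapping pairs, 10 (83.3%) had the same direction, between 90.9% of 265 pairs in islands and 65.8% of 76 pairs in open sea. The CHG and CHH levels at members were low. The highest was in the promoter of Baiap2l1, an actin regulator gene, where CHH methylation reached 10.7% in CUMS against 0.0792% in Ctrl beside a CG level of 28.5% and 5.82%. Pdcd10 was overlapped in both contexts, with a CHG level of 5.68% and 0.0212% and a CHH level of 4.37% and 0.198%. The exceptions were Btd, where CHH was at 8.28% in CUMS and 2.63% in Ctrl while CG was lower in CUMS, and ENSRNOG00000070008, where CHH was at 0.0804% and 3.99% while CG was higher in CUMS.

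Members were spread over the genome, with at least 1 on each of the 20 autosomes and 15 on the X chromosome (12 hypermethylated and 3 hypomethylated), which these male rats carry in a single copy. The hypermethylated members were the majority on 17 of the 20 autosomes. The exceptions were chromosome 11 with 0 and 2, chromosome 15 with 1 and 1, and chromosome 8 with 2 and 2. Chromosome 10 held the most, 19 members, 14 of them hypermethylated, and chromosome 1 had 13 hypermethylated members and 1 hypomethylated. Among the members without a gene that the rule named, those at chr2:2843347-2843657 (64.8% in CUMS and 47.6% in Ctrl), chr3:56369886-56370010 (11.9% and 4.49%) and chr3:156758338-156758408 (94.7% and 78.7%) were higher in CUMS. Those at chr2:185490135-185490218 (17.2% and 38.7%), chr4:154136960-154137034 (47.8% and 72.6%) and chr10:87276427-87276507 (65.4% and 83.6%) were lower.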

How the data were processed

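Genomic DNA of sorted hippocampal BMECs (3 CUMS and 3 Ctrl libraries) was converted enzymatically and sequenced. Per the labels, the authors trimmed reads with fastp (0.20.0), checked them with FastQC (0.11.3) and aligned them to mRatBN7.2 (rn7) with Bismark (0.16.3) and Bowtie2. They called regions with DSS. The deposited tables hold, per region, a methylation level as a fraction for each group, a length, a count of cytosines, an area statistic (a score) and the difference of the levels. The last 2 are the authors' comparison and are not printed here. The area statistic served only to rank members when naming genes. The fractions are group values without counts or coverage, so no test, replicate error or depth per region could be computed, and whether the libraries came from separate rats is not stated beyond their titles. A minimum difference stated in the study's methods does not hold for every listed region, since some differ by under 10 points.

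Annotation rows were joined by position and context with Python (3.11.15) and pandas (2.3.3), levels were multiplied to percent, and differences were taken as CUMS minus Ctrl. Overlaps and gaps were computed on 1-based coordinates. The only interval is an exact binomial 95% interval from scipy (1.17.1). The scripts were tested on simulated data. The members and gene lists were chosen with earlier results of these data known. Genes were named by a rule: the 8 members of highest area statistic with a symbol and the 4 largest differences in each direction, up to 3 per gene list, and the 3 highest in each direction in promoters and outside genes. Genes named beside these, such as the rest of the imprinted list, Foxi2, 5′ UTR and vascular genes, shore and island pairs, members close together and overlaps with CHG or CHH regions, were picked out after their values were seen. Of 148 member genes, 128 matched a RefSeq symbol. A table of mean methylation over all gene bodies was not used. Alternatives are given in the closing section.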

Additional observations from a re-analysis of the deposited data

How the results depend on the processing

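No paired analysis was possible because only group levels were deposited, so there was also no replicate to leave out. Of 78 alternative values for 8 results, 56 stayed within 1.5 times the count (or within the interval of the share), 22 moved and 0 reversed. Counts, and medians taken within a single direction, cannot reverse, so the 0 bears only on the hypermethylated share. The hypermethylated share of shore members ranged from 75.8% to 88.3%. Counting any region with a shore row, island row or not, gave 459 hypermethylated and 61 hypomethylated regions (88.3%), 139 with an island region nearby, 40 with a CHG or CHH overlap and 179 in promoters. Requiring 20 points left 55 and 16, 16 with an island region nearby, 3 with another context and 25 in promoters. Requiring 10 cytosines left 17 hypomethylated members, a share of 83.5%, 6 with another context and 33 in promoters. Requiring 100 bp left 50 and 10, 14 with an island region nearby, 3 with another context and 18 in promoters. Without regions that are also in a shelf, 7 overlapped another context, and 5 did when the reduced list alone was searched. All 49 named regions kept their sign as log2 ratios, an alternative chosen after seeing the data. A log2 ratio has the sign of the difference for any pair of levels, so this count could not come out otherwise. The read counts behind each level are not in the tables used here, so the error of a level over 5 to 94 cytosines cannot be given.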

Other observations

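Some members lay close together on a chromosome, a pattern that was noticed in the positions and not tested. The densest stretch of 1 Mb held 6 members within 572063 bp at chr7:8574384-9146446, in or beside Zbtb7a, Map2k2, Diras1, Tmprss9, Abhd17a and Klf16. The first 5 were higher in CUMS, from Abhd17a at 9.41% in CUMS and 3.63% in Ctrl to Tmprss9 at 57.7% and 35.5%, and Klf16 was lower.

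Dhrsx and Asmtl, neighbours in the pseudoautosomal region of the human sex chromosomes, lie on chromosome 12 in the rat with 15184 bp between their members. Both were lower in CUMS, Dhrsx at 77.2% and 92.2% in Ctrl, and Asmtl at 66.2% and 78.4% in Ctrl.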
